A study of Homo sapiens with 24 samples.

Results

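Regions of changed chromatin accessibility were examined at 9 genes of the NOTCH pathway after CDK9 inhibition (CDK9i) in 2 human diffuse large B-cell lymphoma (DLBCL) cell lines. A region was taken as belonging to a gene when it lay within 10 kb of one of the gene's annotated transcription start sites (TSS) or overlapped the gene body. By this rule 31 regions were found among the 26369 distinct regions of the authors' 8 lists, and they fell at 7 of the 9 genes. Of protein-coding genes in general, 43.1% had no region in any list. ATAC-seq, in which a transposase cuts and tags accessible DNA, had been applied to OCI-LY3 and VAL cells exposed to 30 nM AZD4573, a selective CDK9 inhibitor, for 0, 3 or 8 h. Each of the 6 conditions had 4 libraries, 2 from a standard protocol on 50000 cells and 2 labelled Fast-ATAC on 5000 cells, making 24 libraries in all. Each line is a continuous culture of 1 tumor, and the 0 h libraries, named DMSO in the lists, were the controls for both treated times of their line.

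The lists gave the coordinates of regions called increased or decreased against 0 h and no value per library, so no level, error or depth could be attached to a region. A region missing from a list may have changed by less than the authors' limits (a fold change above 1.5 and an adjusted p-value limit) or may not have been a peak. Bulk libraries also cannot tell a region that is open in more cells from one that is more open in each cell. The times of a line share their 0 h libraries, and their values are therefore set side by side below without a measure of overlap.

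NOTCH receptors are cut on contact with a ligand on a neighboring cell, and the released intracellular domain enters the nucleus. There it joins the DNA-binding factor RBPJ and a mastermind coactivator such as MAML2, turning a repressed site into an active one, while SPEN serves as a corepressor of RBPJ. HES1, HES4 and NRARP are classical target genes, NRARP feeding back as an inhibitor, and DTX1 (Deltex) is a ubiquitin ligase that modulates the pathway. In B cells NOTCH2 directs marginal zone fate, and NOTCH1, NOTCH2, SPEN and DTX1 are recurrently mutated in B-cell lymphomas.

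Regions of increased accessibility outnumbered decreased ones at the NOTCH pathway genes in VAL cells, as they did over all listed regions, and the increased ones included the promoters of 5 of the 9 genes at 8 h, beside 25.1% of all protein-coding genes. Of the 31 regions, 21 were increased and 10 decreased, and 0 appeared in both directions. At 3 h VAL had 6 increased regions of 7, beside 66.5% increased among all listed regions, and at 8 h 17 of 25, beside 54.6%. OCI-LY3 had 2 of 3 at 3 h, beside 52.5%, and 6 of 7 at 8 h, beside 55.8%. VAL alone accounted for 23 regions, OCI-LY3 alone for 6, and 2 were shared, both at DTX1. NOTCH1, SPEN, DTX1, HES4 and NRARP had increased regions exclusively in these lists, while MAML2 had mostly decreased ones and RBPJ had both kinds. NOTCH2 and HES1 had 0 regions in all 8 lists, as did 8685 other protein-coding genes (43.1%) for each.

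**Figure D1:**
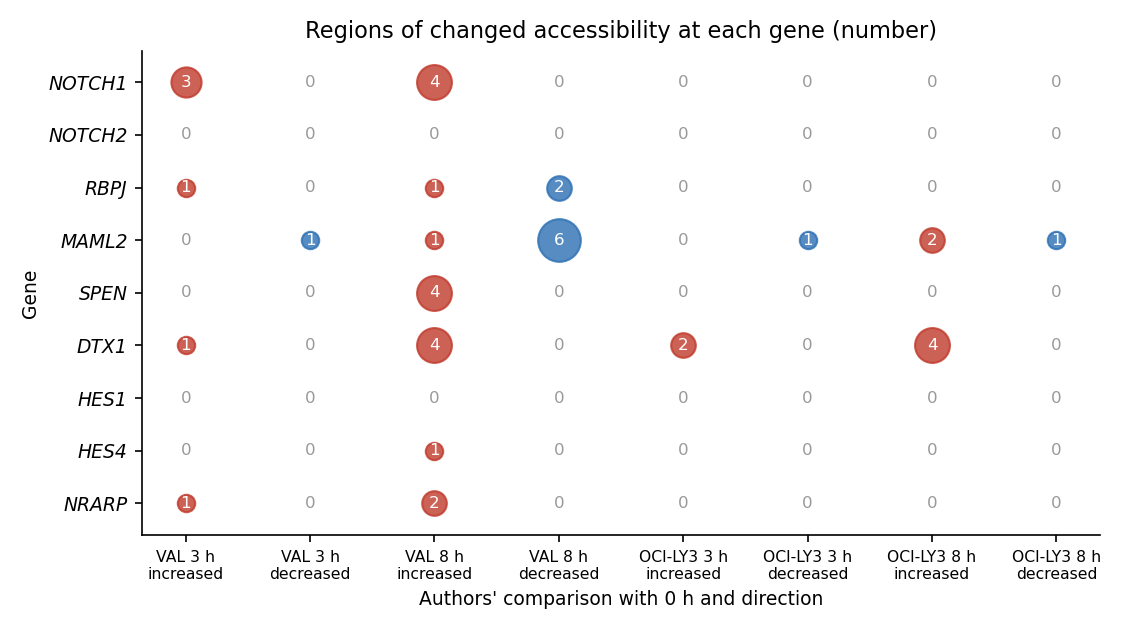
Number of listed regions at each of the 9 genes (rows) in the 8 lists (columns), with red circles for increased and blue for decreased accessibility and circle area in proportion to the number. VAL at 8 h holds most of the regions, 17 increased and 8 decreased, and OCI-LY3 increased regions lie at DTX1 and MAML2 alone.

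The promoters of NOTCH1, NRARP, HES4 and SPEN, which opened in VAL, are shown first, as regions at the TSS of a receptor, a corepressor and targets. Each stretch is the 250 bases just upstream of the first TSS among transcripts tagged basic in the annotation, read from GRCh37 (hg19) 5′ to 3′ on the strand of the gene, and lies inside the increased region. Capitals mark GC boxes (GGGCGG on either strand, overlapping matches joined).
NOTCH1 (chr9:139440501-139440750, minus strand): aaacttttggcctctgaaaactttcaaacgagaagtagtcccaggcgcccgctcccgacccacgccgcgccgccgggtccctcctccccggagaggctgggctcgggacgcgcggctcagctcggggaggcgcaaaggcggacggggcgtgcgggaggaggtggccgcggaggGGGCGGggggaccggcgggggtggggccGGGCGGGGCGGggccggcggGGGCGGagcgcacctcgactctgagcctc
NRARP (chr9:140196724-140196973, minus strand): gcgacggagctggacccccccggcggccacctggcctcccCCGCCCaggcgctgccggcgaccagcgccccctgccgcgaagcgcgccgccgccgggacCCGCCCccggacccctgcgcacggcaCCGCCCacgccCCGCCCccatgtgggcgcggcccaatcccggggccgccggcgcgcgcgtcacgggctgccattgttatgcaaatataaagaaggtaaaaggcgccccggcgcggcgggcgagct
HES4 (chr1:935553-935802, minus strand): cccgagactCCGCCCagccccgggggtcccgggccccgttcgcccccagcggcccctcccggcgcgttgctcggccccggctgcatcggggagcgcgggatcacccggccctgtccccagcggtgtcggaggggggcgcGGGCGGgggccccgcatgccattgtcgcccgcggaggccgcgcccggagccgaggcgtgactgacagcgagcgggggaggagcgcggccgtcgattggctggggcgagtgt
SPEN (chr1:16173952-16174201, plus strand): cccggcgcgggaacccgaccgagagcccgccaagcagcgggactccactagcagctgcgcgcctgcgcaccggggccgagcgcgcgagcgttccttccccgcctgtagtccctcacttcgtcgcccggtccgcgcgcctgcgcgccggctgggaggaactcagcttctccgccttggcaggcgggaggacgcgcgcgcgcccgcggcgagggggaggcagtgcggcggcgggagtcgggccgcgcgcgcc

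These promoters were rich in GC and in CpG. The NOTCH1 window held 76.0% GC, 33 CpG dinucleotides and 4 GC boxes, and it also overlaps the annotated noncoding genes NALT1 and MIR4674. The NRARP window held 78.4% GC, 39 CpG and 4 GC boxes, and the HES4 window 80.0% GC, 37 CpG and 2 GC boxes. The SPEN window held the most CpG of these, 44, with 0 GC boxes. Over the same windows of 20175 protein-coding genes the median was 61.2% GC and 16 CpG, and 53.1% held a GC box. The same windows of the 4 genes with no listed promoter varied, with 73.2% at RBPJ, 72.4% at NOTCH2, 63.6% at MAML2 and 59.2% at HES1. The unlisted RBPJ window held 32 CpG and 6 GC boxes, and the NOTCH2 window 29 CpG and 1 GC box. At MAML2 there were 12 CpG and 2 GC boxes, and at HES1 18 CpG and 0 GC boxes. All 4 promoters shown lay above the median in GC, as did the unlisted promoters of RBPJ, NOTCH2 and MAML2.

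NOTCH1 (chr9:139388885-139440500, minus strand) had 4 regions, all increased and all in VAL. The promoter region, chr9:139439630-139441501, covered the canonical TSS and exon 1 and was listed at 3 h and again at 8 h. So were a region 4464 bp upstream of the TSS, chr9:139444964-139446794, and a region in intron 2, chr9:139433457-139434666. A further intron 2 region, chr9:139427875-139428242, was listed at 8 h and not at 3 h. In OCI-LY3 the count was 0 at both times, and the nearest increased region lay 83030 bp from the gene at 3 h and at 8 h.

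NOTCH2 (chr1:120454176-120643366, minus strand), the other receptor of the set, had 0 listed regions along its gene body of 189191 bp. The closest listed regions were a decreased one 146775 bp away in VAL at 8 h and an increased one 165029 bp away in OCI-LY3 at 8 h. Part of NOTCH2 is nearly identical to the NOTCH2NL genes, and the authors removed reads that did not align uniquely, so such stretches may not be read in full here. The part of this in the lack of listed regions at NOTCH2 was not tested.

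RBPJ (chr4:26165077-26436753, plus strand) changed in VAL in both directions. An intron 3 region, chr4:26408269-26408948, was increased at 3 h and at 8 h. At 8 h 2 regions of intron 1, chr4:26373762-26375294 and chr4:26379288-26379762, were decreased. The promoters of RBPJ, which has 15 annotated basic TSS positions, were in none of the lists, and OCI-LY3 had 0 regions. The RBPJ stretch below is the middle of the increased region, shown because it opened at both times with a low GC content (33.0% in this stretch).
RBPJ intron 3 (chr4:26408509-26408708, plus strand of the reference): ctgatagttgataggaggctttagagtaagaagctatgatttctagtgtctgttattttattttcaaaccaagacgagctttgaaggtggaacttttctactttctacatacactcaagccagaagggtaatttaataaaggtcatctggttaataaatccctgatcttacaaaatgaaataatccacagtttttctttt

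MAML2 (chr11:95709762-96076359, minus strand), the longest gene of the set at 366598 bp, had 11 regions, and all were intronic. In VAL 6 were decreased at 8 h, among them chr11:96071495-96072842 in intron 1, 3517 bp from the TSS, and chr11:96005877-96006522, which was the one decreased at 3 h as well. Another of the 6, chr11:95744937-95747208, lay nearer a TSS of MTMR2 (87650 bp) than that of MAML2 (329151 bp). A short region of 473 bp, chr11:96012524-96012996, was increased in VAL at 8 h. OCI-LY3 had 1 decreased region at 3 h, chr11:95855796-95857515. This region was also nearer a TSS of MTMR2 (198509 bp) than that of MAML2 (218844 bp). At 8 h OCI-LY3 had a decreased region, chr11:95867272-95868519, and 2 increased ones, chr11:95917802-95919301 and chr11:96063762-96065209, the latter 11150 bp from the TSS. The stretch below is the middle of the region decreased at 3 and 8 h in VAL, with 35.5% GC.
MAML2 intron 1 (chr11:96006100-96006299, plus strand of the reference): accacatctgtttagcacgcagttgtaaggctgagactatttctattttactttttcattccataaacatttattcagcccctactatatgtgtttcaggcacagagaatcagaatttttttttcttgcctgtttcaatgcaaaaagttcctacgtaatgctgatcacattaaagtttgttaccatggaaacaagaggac

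The background was also counted by gene length. In VAL at 8 h 39.9% of protein-coding genes longer than 100 kb had a decreased region, against 8.52% of shorter ones. For increased regions at that time the shares were 34.0% and 37.5%. MAML2, RBPJ, NOTCH2 and SPEN are all longer than 100 kb, and of these MAML2 and RBPJ had decreased regions. The part of length in the number of decreased regions at MAML2 was not tested.

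SPEN (chr1:16162590-16266951, plus strand) had 4 increased regions in VAL at 8 h and 0 at 3 h. They were the promoter region, chr1:16173409-16175410, which covered the TSS and exon 1, a region 3217 bp upstream of it, chr1:16169937-16170985, and a region each in introns 3 and 6, chr1:16212403-16212803 and chr1:16243114-16243584. The intron 6 region lay nearer a TSS of ZBTB17 (58990 bp) than that of SPEN (68912 bp). The upstream and intron 3 regions were low in GC, at 38.5% and 39.4%, whereas the promoter region reached 69.0%. In OCI-LY3 the rule gave 0 regions. A decreased region of OCI-LY3 at 8 h lay 8768 bp from the end of SPEN and was outside the rule, which extends 10 kb from a TSS and not from the end of a gene.

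DTX1 (chr12:113494535-113535833, plus strand) was the 1 gene of the 9 with increased regions in both lines at both times. At 3 h VAL had the promoter region, chr12:113493755-113496045, over the TSS and exons 1 and 2, while OCI-LY3 had 2 regions of intron 2, chr12:113502548-113503445 and chr12:113505521-113506623. At 8 h the lines met at chr12:113505521-113506623 in intron 2 and at chr12:113523800-113526087 in intron 3. VAL at 8 h also had the promoter and chr12:113530692-113531608, which spans coding exons 4 and 5, and OCI-LY3 at 8 h also had chr12:113500032-113501316 and chr12:113502548-113503445, both in intron 2. The promoter was in none of the OCI-LY3 lists. In all, 6 regions were increased and 0 decreased along the 41299 bp of the gene.

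The middles of the 2 regions shared by the lines are shown as the regions at the 9 genes that opened in both. The stretches differ in length, with 200 bases of the intron 2 region and 300 bases of the intron 3 region. Capitals mark the RBPJ consensus GTGGGAA, which the intron 2 stretch does not hold. The intron 3 match lay at -128 bp from the midpoint of its region, so the middle 200 bases of that region do not hold it.
DTX1 intron 2 (chr12:113505973-113506172, plus strand): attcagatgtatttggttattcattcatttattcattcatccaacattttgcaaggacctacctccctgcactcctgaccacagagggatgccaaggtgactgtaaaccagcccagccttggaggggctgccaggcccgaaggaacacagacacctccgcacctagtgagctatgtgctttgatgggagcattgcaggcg
DTX1 intron 3 (chr12:113524794-113525093, plus strand): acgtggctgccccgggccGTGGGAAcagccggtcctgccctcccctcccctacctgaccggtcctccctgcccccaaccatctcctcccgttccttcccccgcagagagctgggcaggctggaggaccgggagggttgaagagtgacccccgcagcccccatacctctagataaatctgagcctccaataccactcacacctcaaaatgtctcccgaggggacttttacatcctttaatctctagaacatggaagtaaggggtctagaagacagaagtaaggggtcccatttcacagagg

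Among the target genes, HES4 and NRARP opened in VAL and HES1 was in no list. HES4 (chr1:934342-935552, minus strand), a transcriptional repressor of the hairy and enhancer of split family, had 1 region, chr1:935399-936383, increased at 8 h. The region covered the HES4 TSS and also ended 135 bp from an annotated TSS of ISG15, the interferon-induced ubiquitin-like modifier, which is transcribed the other way. It held 2 matches of the cAMP response element (CRE, TGACGTCA), 1 of the 8 motifs searched, and was the 1 region of the 31 with a match, beside 1.68% of all listed regions. The matches are printed in capitals below.
HES4 upstream, CRE pair (chr1:936234-936325, plus strand of the reference): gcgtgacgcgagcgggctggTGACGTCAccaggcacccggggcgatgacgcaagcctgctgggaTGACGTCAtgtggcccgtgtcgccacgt

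NRARP (chr9:140194083-140196723, minus strand), a gene of 1 exon, had its promoter region, chr9:140195854-140197491, increased in VAL at 3 and 8 h. A region 6312 bp from the TSS, beyond the end of the gene at chr9:140189274-140190411, was increased in VAL at 8 h. These were the regions of the set with the highest GC content, 76.8% at the promoter and 74.7% beyond the gene. HES1 (chr3:193853937-193856521, plus strand), the best known NOTCH target, had 0 regions. The closest was increased in OCI-LY3 at 3 and 8 h and lay 14257 bp upstream, just outside the 10 kb limit, while the closest in VAL at 8 h was 67100 bp away. Near the 10 kb limit, the farthest region that lay outside a gene and still counted was that of NRARP at 6312 bp, and the nearest that did not count was one 12772 bp from a HES4 TSS, increased in VAL at 8 h.

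**Figure D2:**
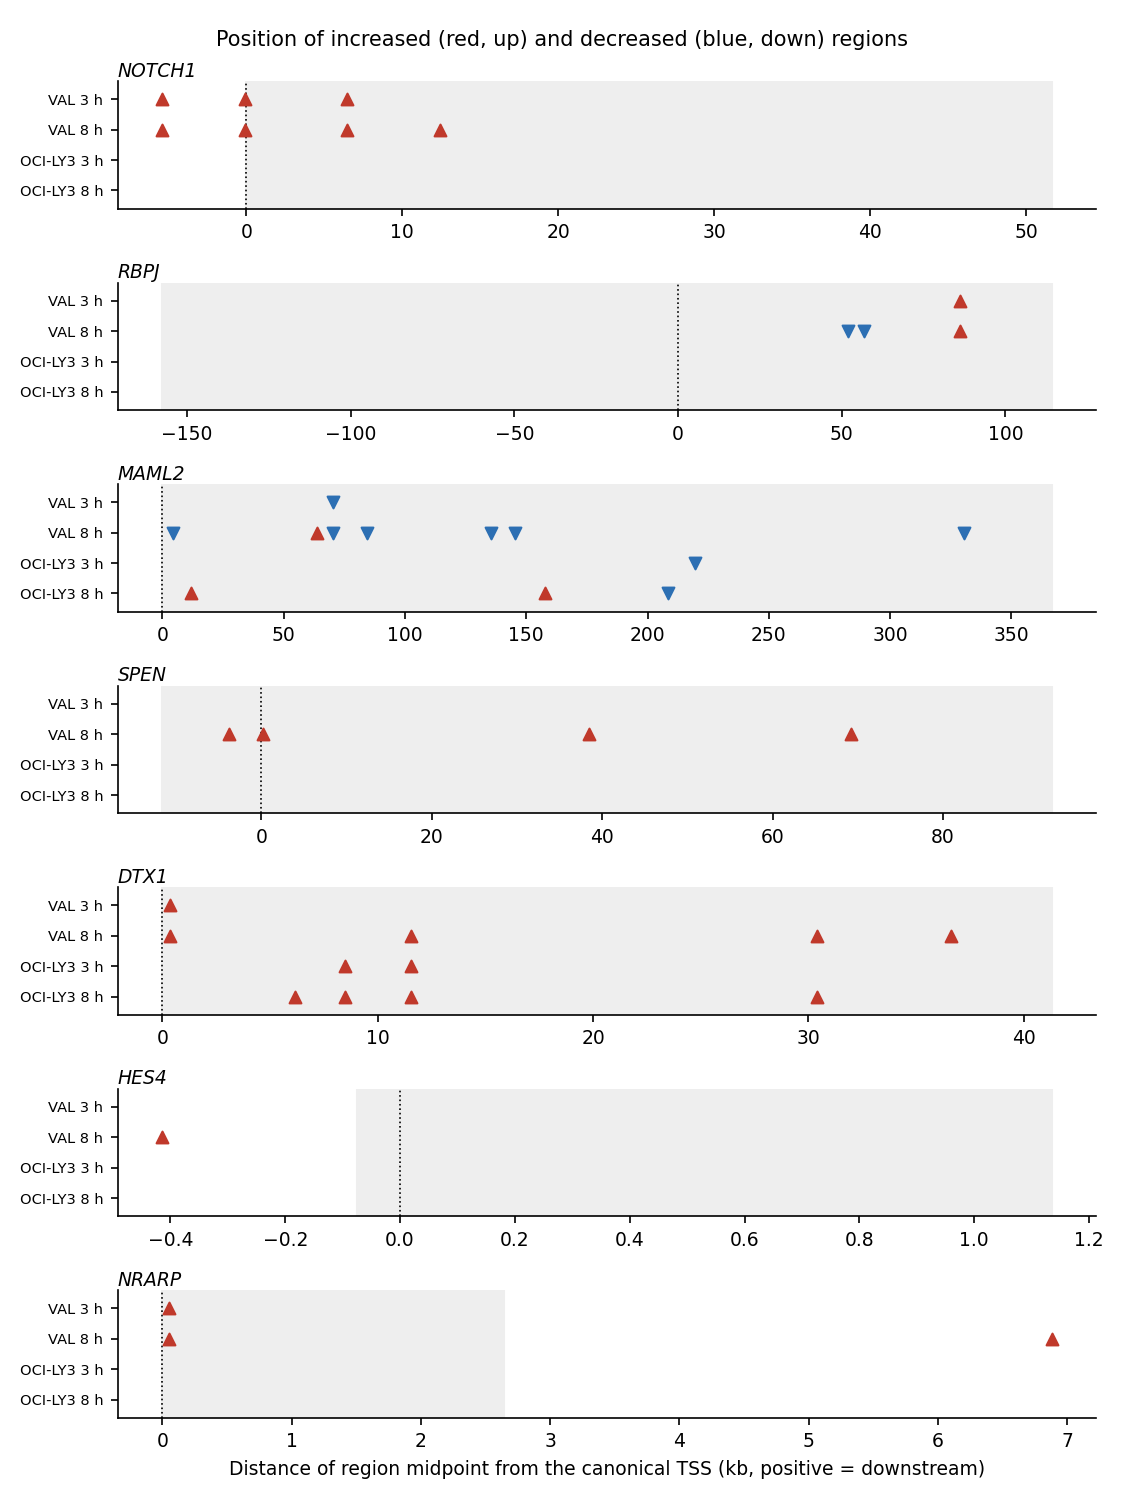
Position of each listed region at the 7 genes that had any, as the distance of its midpoint from the canonical TSS in kb (positive downstream), with red upward triangles for increased and blue downward triangles for decreased regions in the 4 comparisons. Grey marks the annotated gene and the dotted line its canonical TSS, and each gene has its own horizontal scale. Increased regions of NOTCH1, NRARP, SPEN, DTX1 and HES4 include the TSS, whereas those of MAML2 and RBPJ lie inside the gene away from it.

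The counts of genes were read against all protein-coding genes under the same rule. In VAL at 3 h 4 of the 9 genes had an increased region, against 16.9% of 20175 protein-coding genes, and 1 had a decreased region, against 4.69%. In VAL at 8 h 7 of the 9 had an increased region, against 36.8%, and 2 a decreased one, against 14.2%. For OCI-LY3 at 3 h 1 of the 9 had an increased region, against 10.6%, and 1 a decreased one, against 5.29%. At 8 h 2 had an increased region, against 18.9%, and 1 a decreased one, against 8.18%. With 9 genes chosen with earlier results known, no test was made of these shares.

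Restricting the rule to promoters, with a region within 1 kb of a TSS, left increased regions in VAL alone. VAL had 3 of 9 increased promoters at 3 h, against 10.3% of all protein-coding genes, namely NOTCH1, DTX1 and NRARP. At 8 h VAL had 5 of 9, against 25.1%, with SPEN and HES4 added. OCI-LY3 had 0 of 9 at 3 h, against 5.91%, and 0 of 9 at 8 h, against 9.3%. Decreased promoters numbered 0 of 9 throughout, where the background for VAL was 0.322% at 3 h and 3.38% at 8 h, and for OCI-LY3 0.694% and 1.28%. A count of 0 is close to what such low backgrounds give, and whether the lines differed at these promoters was not tested.

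**Figure D3:**
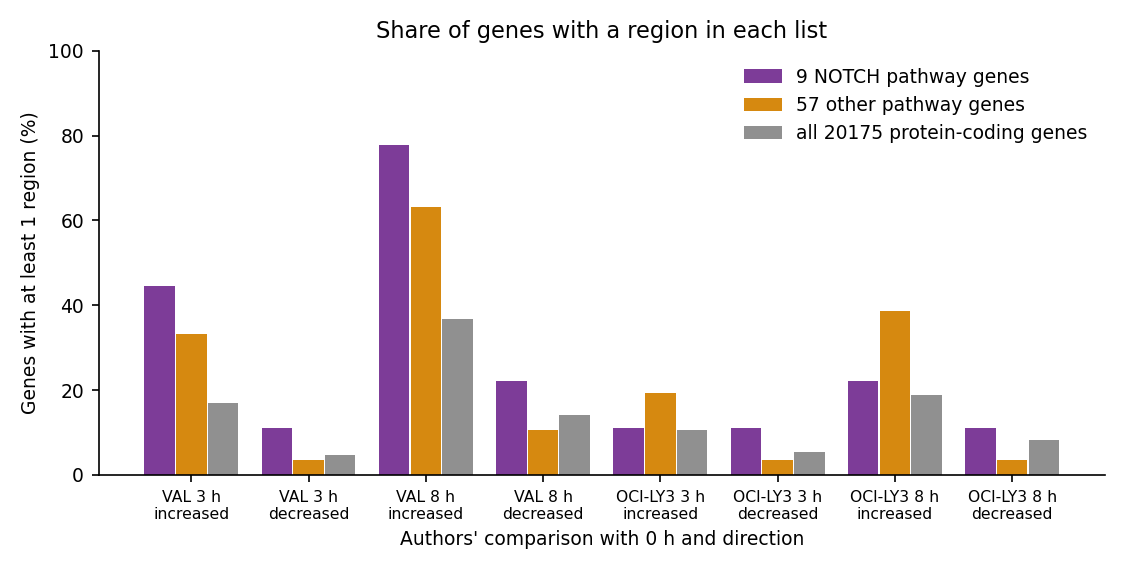
Percentage of genes with at least 1 region in each list for the 9 NOTCH pathway genes, the 57 other pathway genes and all 20175 protein-coding genes. Bars for VAL at 8 h increased are the highest in each set, with 7 of 9, 36 of 57 and 36.8%.

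The regions around each gene were counted to set its direction beside that of its surroundings. Within 1 Mb on either side of NOTCH1, with regions at the 9 genes left out, the 3 h lists of VAL held 40 increased and 0 decreased regions and the 8 h lists 90 and 0. Around NRARP, whose window overlaps that of NOTCH1, the numbers at 8 h were 87 and 0. They were 62 and 0 around HES4, 37 and 0 around SPEN and 13 and 0 around DTX1. Over the whole chromosome the increased share of VAL regions at 8 h was 58.9% for chromosome 9, which holds NOTCH1 and NRARP, 62.8% for chromosome 1, which holds HES4 and SPEN, and 59.4% for chromosome 12, which holds DTX1. The nearest decreased region of VAL at 8 h was 6618997 bp from NOTCH1, 12569395 bp from SPEN and 27900794 bp from HES4. At the genes with decreased regions most neighbors were decreased, with 1 increased and 14 decreased regions around MAML2 and 0 and 13 around RBPJ in VAL at 8 h. The increased share over chromosome 11, which holds MAML2, was 55.4%, whereas over chromosome 4, which holds RBPJ, it was 15.8%, so that the surroundings of RBPJ were close to its whole chromosome. RBPJ nonetheless had its increased intron 3 region, at 3 h beside 1 increased and 2 decreased neighbors. HES1, with no listed region, had 5 increased and 4 decreased neighbors, and NOTCH2 had 2 increased and 1 decreased. The part of the surroundings in the change at each gene was not tested.

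In OCI-LY3 at 8 h the surroundings of NOTCH1 held 23 increased and 0 decreased regions, those of NRARP 23 and 0, and those of HES4 23 and 0, although these genes themselves had none listed. Around SPEN there were 3 increased and 5 decreased regions and around DTX1 5 and 1. The OCI-LY3 surroundings of RBPJ had 0 increased and 4 decreased regions, and MAML2, with 2 increased regions and 1 decreased of its own, had 0 and 1.

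**Figure D4:**
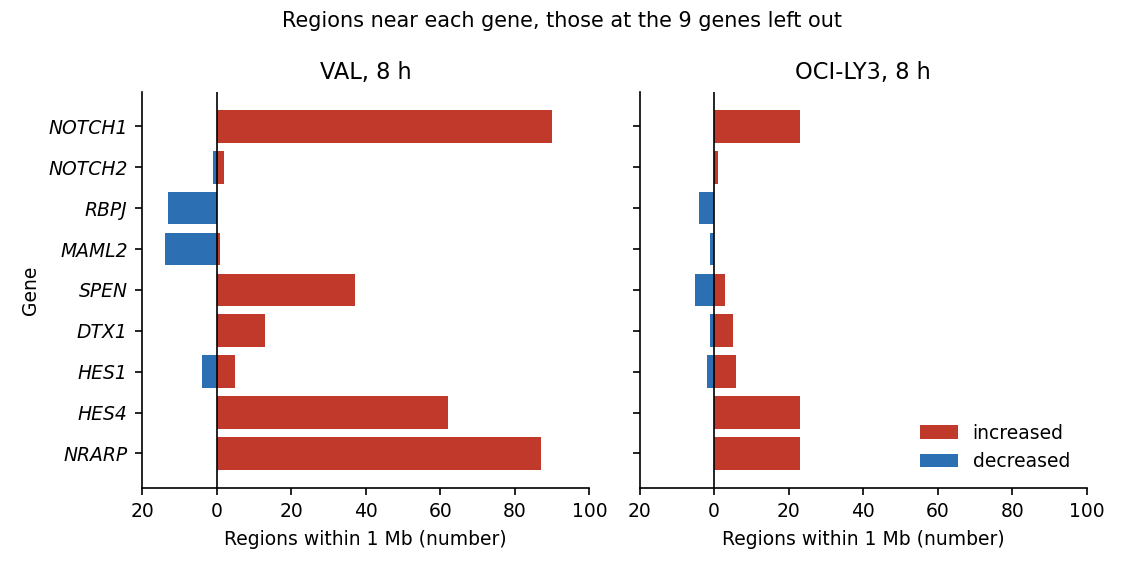
Number of increased (red, to the right) and decreased (blue, to the left) regions within 1 Mb of each gene at 8 h in VAL and OCI-LY3, leaving out regions at the 9 genes. NOTCH1, NRARP, HES4, SPEN and DTX1 have 0 decreased neighbors in VAL, and RBPJ has 0 increased ones.

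GC content varied with direction in the same way as over the whole lists. In VAL at 8 h the 17 increased regions had a median of 60.3% GC (range 37.4 to 76.8), beside 58.1% for all increased regions, and the 8 decreased ones 39.0% (34.4 to 45.3), beside 40.7%. In OCI-LY3 at 8 h the 6 increased regions had a median of 52.2% (46.0 to 60.6), beside 53.5%, and none of them reached the GC content of the NOTCH1, NRARP, HES4, SPEN or DTX1 promoter regions. The regions were 368 to 2291 bp wide with a median of 1248 bp, beside 1309 bp over all listed regions.

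**Figure D5:**
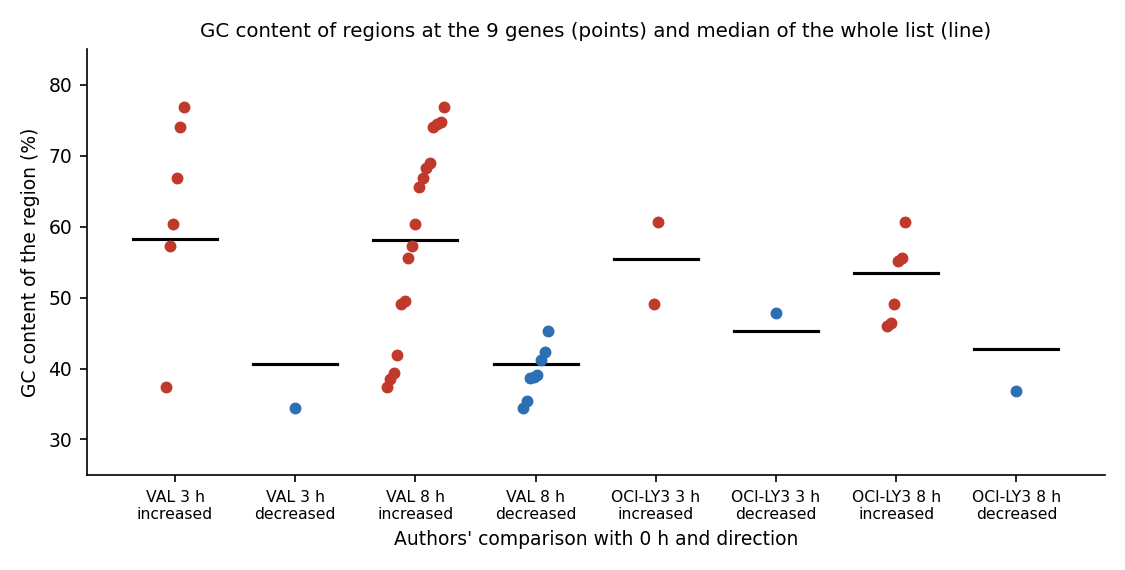
GC content in percent of each region at the 9 genes (points, red for increased and blue for decreased) in the 8 lists, with the median of all regions of the list as a black line. Decreased regions in VAL at 8 h lie between 34.4% and 45.3%, while increased ones reach 76.8%.

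Matches to the RBPJ consensus were present in a share of regions near that of all lists. GTGGGAA, searched on both strands, was present in 8 of the 31 regions, against 23.6% of all listed regions, and the shorter TGGGAA that it contains in 21 of 31, against 65.6%. The matches lay at NOTCH1, MAML2, SPEN, DTX1 and HES4. Pairs were found in the NOTCH1 upstream region and in the DTX1 intron 3 region, of which the stretch shown above holds 1. In HES4 a match spanned the first TSS, and in SPEN one began 1 base after the TSS. In the 250 bases upstream of the first TSS, 0 of the 4 promoters shown held GTGGGAA, while those of RBPJ and HES1 did, against 5.33% of all protein-coding genes. The GC box was present in 13 of the 31 regions, against 40.2%, the AP-1 consensus TGANTCA in 9, against 30.7%, the HES-binding N-box CACNAG in 27, against 86.8%, the CRE in 1, against 1.68%, and the NFkB consensus in 2, against 2.51%. The CTCF consensus, with at most 1 mismatch, matched 0 of 31, against 13.7%. All of these background shares pool increased and decreased regions of both lines and are not split by direction. Such matches are letters in the reference sequence and do not show binding.

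Between the lines, whose 0 h libraries were separate, regions were counted as shared where their coordinates were equal. At 8 h 2 increased regions were common to the 17 of VAL and the 6 of OCI-LY3, beside 20.9% of all increased VAL regions and 53.3% of all increased OCI-LY3 regions. At 3 h 0 were common to the 6 of VAL and the 2 of OCI-LY3, beside 20.6% and 39.4%. Decreased regions shared were 0 at both times, beside 15.5% of VAL and 16.5% of OCI-LY3 regions over the whole lists at 3 h, and 11.8% and 31.6% at 8 h. With 1 decreased OCI-LY3 region at each time, and few increased ones, these counts do not set the NOTCH pathway genes apart from the lists as a whole.

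A list of 57 other NOTCH pathway genes was counted by the same rule. VAL at 8 h had an increased region at 36 of them (63.2%), beside 36.8% of all protein-coding genes, and a decreased one at 6 (10.5%), beside 14.2%. OCI-LY3 at 8 h had 22 (38.6%) increased, beside 18.9%, and 2 (3.51%) decreased, beside 8.18%. At 3 h increased regions were found at 19 (33.3%) for VAL, beside 16.9%, and at 11 (19.3%) for OCI-LY3, beside 10.6%. Decreased ones at 3 h were found at 2 (3.51%) for each line, beside 4.69% and 5.29%. Increased promoters at 8 h numbered 28 (49.1%) for VAL and 8 (14.0%) for OCI-LY3, against the 25.1% and 9.3% given above. Of decreased promoters there was 1, in OCI-LY3 at 3 h.

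Among the 57 genes, 8 promoters were increased in both lines at 8 h, beside 7.49% of all protein-coding genes. They belonged to a ligand gene, genes of receptor cleavage and modification, and Dishevelled genes. DLL3 is a ligand-like protein. NCSTN, APH1A and PSENEN are 3 of the subunits of gamma-secretase, the protease that frees the intracellular domain. RFNG and POFUT1 modify the sugars of the receptor, and DVL1 and DVL3 are Dishevelled proteins of the WNT pathway that also bind NOTCH. Of the 6 further target genes, 2 had an increased promoter in VAL at 8 h, beside 25.1% of all protein-coding genes, and 0 did in OCI-LY3, beside 9.3%. By role, an increased region in VAL at 8 h was found at 3 of 5 ligands, both further receptors, 5 of 8 proteases, 5 of 5 receptor modifiers, 7 of 13 trafficking and ubiquitin genes, 5 of 7 coactivators, 6 of 11 corepressors and 3 of 6 targets, beside 36.8% of all protein-coding genes.

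The rest of the mastermind family, and the genes with decreased regions, were chosen for description after their values were seen. MAML3, a long gene like MAML2, had 6 decreased regions and 1 increased in VAL at 8 h, and 3 decreased and 1 increased in OCI-LY3 at 8 h. MAML1, which is shorter, had 1 increased region in VAL at 8 h, at its promoter, and 0 in OCI-LY3. Other pathway genes with decreased regions in VAL at 8 h were HDAC2 and TLE4 with 3 each, KAT2B with 2, and DTX2 and FBXW7 with 1 each.

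Genes with a like pattern were sought by the sum of absolute differences in the 8 region counts. For DTX1 the closest were PPP1R12C, DUS2 and FANK1, each with a sum of 1, and 1046 genes (5.18%) had regions in exactly the same lists. For MAML2 they were POU2AF1, a B-cell coactivator, with a sum of 2, GALNT7 with 3 and MGAT5 with 4, and 5 genes had regions in the same 6 lists. For RBPJ they were EPM2A, RORB and TAB2, each with a sum of 0. The pattern of NOTCH1 and NRARP, increased in VAL at both times and in no other list, was that of 1107 other genes for each, and that of SPEN and HES4, increased in VAL at 8 h alone, was that of 2703.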

How the data were processed

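Chromatin accessibility was profiled by ATAC-seq in 24 libraries. Reads were mapped by the authors to hg19 (bowtie2), who then discarded mitochondrial, non-unique and duplicate reads, called peaks per sample with MACS2 (q of 0.05), merged them and counted reads with bedtools, and compared 3 and 8 h with 0 h in each line using DESeq2 (fold change above 1.5). The supplementary methods give an adjusted p limit of 0.01 and the figure legend 0.05. The methods describe Fast-ATAC on 50000 cells, whereas the labels name a standard protocol with that number and Fast-ATAC with 5000. Whether reads were shifted for the transposase is not given in the sources used here. Nor is it given whether libraries of both protocols entered each comparison, or whether the protocol entered the model. Each deposited list gives the coordinates of regions, with 0 columns of per-sample values, so depth is unknown and no test was run.

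Regions were assigned to GENCODE v44 genes (lifted to GRCh37; the chromosome names match those of the lists and every region ends within its chromosome), using TSS of transcripts tagged basic and an overlap of 1 bp. Python 3.11.15, numpy 2.4.6, pandas 2.3.3, pysam 0.24.0 and matplotlib 3.10.9 were used. Coordinates are given 1-based. Assignment and motif search were tested on simulated data. Regions shared between lines had equal coordinates. Motifs had to match exactly, except CTCF. The sequence of 1 promoter is not reported here. Alternatives were the window, the promoter, the nearest TSS, merging of regions, the motif and gene length.

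The 9 genes and all lists were chosen with earlier results of these data known. Of the other pathway genes, those with a promoter called in 1 direction in both lines at 8 h were named, at most 12. Genes of like pattern were sought for members in 3 or more lists, up to 3 each, with ties broken by the closest gene length.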

Additional observations from a re-analysis of the deposited data

How the results depend on the processing

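Of 212 alternative values, 176 stayed within 1.5 times the reported one and 36 moved further; where the setting's own construction (a narrower or wider window, a shorter motif) does not show the cause, the cause was not tested. Counting only regions within 1 kb of a TSS left VAL with 3 increased regions at 3 h and 5 at 8 h, and left 0 regions at 0 genes in the 6 remaining lists; the background shares became 10.3%, 0.322%, 3.38%, 5.91%, 0.694%, 9.3% and 1.28%, apart from VAL at 8 h increased, which stayed within the limit. A window of 50 kb gave VAL 12 increased regions at 3 h and 31 at 8 h; OCI-LY3 had 4 at 3 h, and its genes with an increased region numbered 3 at 3 h and 4 at 8 h, where this window also raised the share of all protein-coding genes to 19.7% and 31.1%. Requiring the nearest TSS to be the gene's own left 0 decreased regions and 0 genes in OCI-LY3 at 3 h, where the region lost was that of MAML2. Merging regions within 10 kb left 10 increased for VAL at 8 h and 1 for OCI-LY3 at 3 h. TGGGAA matched 21 regions, and GTGGGAA matched 0 in the 200 bp around the midpoint, beside 65.6% and 3.7% of all listed regions. Genes longer than 100 kb, an alternative chosen after seeing the data, had decreased shares of 13.8% (VAL, 3 h), 39.9% (VAL, 8 h), 13.1% (OCI-LY3, 3 h) and 24.3% (OCI-LY3, 8 h). With 500 kb or 2 Mb in place of 1 Mb, also chosen later, the number of genes whose VAL neighbors at 8 h were all increased was 6 and 5, beside 5.

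No paired analysis was possible because the region lists carry no values for single libraries. For the same reason leaving out a library and a stricter threshold were not run.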

Other observations

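Beyond the 10 kb limit, 15 further regions lay within 50 kb of a TSS of the 9 genes, and all 15 were increased in each list that held them. Increased regions were 54.6% of all VAL regions at 8 h, but the neighbors within 1 Mb of NRARP, HES4, NOTCH1 and SPEN were all increased there as well, so the count adds nothing to that for these genes. NRARP had 6 of them and HES4 5. One NRARP neighbor, chr9:140149073-140150406, was increased in both lines at 3 and 8 h, and another, chr9:140180880-140181756, in VAL at both times and in OCI-LY3 at 8 h, although the NRARP promoter itself was in the VAL lists alone. NOTCH1 had 2, both in VAL, SPEN had 1 in VAL at 8 h, and HES1 had 1, in OCI-LY3 at 3 and 8 h. RBPJ, MAML2, DTX1 and NOTCH2 had 0.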
